A study of Mus musculus with 20 samples.

Results

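The keratin gene family was followed through mouse colon organoids in which the oncogenic BrafV600E allele was switched on. Members were all non-control probes of the expression array whose gene name is Krt followed by a number, with keratin-associated (Krtap) genes left out. The rule found 65 probes for 51 keratin genes among 31473 genes on the array. Of these, 27 genes lie on chromosome 11 and 24 on chromosome 15, where the type I and type II keratin gene clusters are found. In all, 39 of the 51 genes passed the filter for tests: a probe that exceeded background clearly on 3 or more of the 18 arrays of the replicated groups.

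Keratins are the intermediate filament proteins of epithelial cells. A filament is built from pairs of a type I and a type II keratin, so that Krt8 (type II) pairs with Krt18, Krt19 or Krt20 (type I) in simple epithelia such as the gut. Other pairs belong to stratified epithelia, to epithelia under stress, to the root sheath of hair, or to the hair and nail shaft, and in the intestine Krt20 marks differentiated cells near the surface.

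RNA from 20 organoid samples was hybridised to one-colour (Cy3) arrays. Organoids came from proximal colon crypts of male mice around 40 days old and were grown in Matrigel in medium that supplied EGF, Noggin, R-spondin and Wnt3a, the last 3 as conditioned media. Before profiling, each culture spent 48 h in ENSW medium or in base medium, which lacks the niche factors of stem cells. The 3 replicated organoid types all carried 1 copy of a BrafV600E allele that Cre can switch on (Braf+/LSL). EV organoids were given only the lentiviral backbone, without Cre. BRAF organoids received Cre and were profiled at the time labelled 5 m after induction. Selected (SEL) organoids are BRAF organoids that had been selected to grow in base medium. Each type was represented by the same 3 numbered lines in each medium, with n = 3 per group, and wild-type (WT) organoids by 1 array per medium, which entered no test. Nothing in the labels says how many mice a line came from, so p-values measure the spread between these lines.

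Of 6 markers of intestinal epithelium, Epcam, Cdh1, Vil1, Cdx2 and Lgals4 were well above background on all 18 arrays of the replicated types and Cdx1 on 15. All 6 were lower in SEL than in EV organoids in base medium (median -1.70), Cdx1 by -9.75 ± 1.91 (adjusted p = 0.000748), and their summed level on the linear scale was 841 to 992 in EV, 485 to 705 in BRAF and 178 to 418 in SEL organoids there. Of 7 fibroblast markers Col1a1, Dcn, Lum and Pdgfra were well above background on 0 arrays, Col3a1 on 1, Pdgfrb on 5, all of EV organoids, and Col1a2 on 18. Among blood and endothelial markers Cdh5 was on 0 arrays, Cd68 on 9, and Ptprc, Cd3e, Pecam1 and Kdr on 18. The summed level was 0.149 to 0.256 for the fibroblast list over the 18 arrays. For the blood and endothelial list it was 3.97 to 4.67 in EV, 5.45 to 7.49 in BRAF and 4.77 to 5.73 in SEL organoids over both media. EV arrays thus all lay below the BRAF and SEL arrays in that list. The part of these markers in the keratin results was not tested. Between 59.6% and 65.2% of the spots on an array were well above background, and the number of arrays limits the precision. EV arrays shared no slide with BRAF or SEL arrays, so there the slide and the type of organoid cannot be told apart. Of the SEL and BRAF cultures only SEL line 3 and BRAF line 1 lay on the same slide. Slide and type are therefore largely mixed in SEL against BRAF as well. Both media of a culture always lay on 1 slide. RNA was taken from whole organoids, so fewer cells of a type and less RNA per cell cannot be told apart. Levels below are log2 signal minus the 75th percentile of the array, and differences are log2 differences ± standard error (SE) from limma. Adjusted p-values cover all 21423 genes tested, with a call at an adjusted p under 0.05.

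All 6 simple epithelial keratins passed the filter, as did 14 of 16 stratified epithelial keratins, 3 of 5 stress keratins, 3 of 7 root sheath keratins, 12 of 16 hair and nail keratins, and Krt222, which stands outside these classes. The 12 genes that did not pass were Krt1, Krt76, Krt17, Krt75, Krt25, Krt26, Krt28, Krt71, Krt33a, Krt34, Krt40 and Krt82, and 10 genes were well above background on none of the 20 arrays. The brightest probe of a gene stood for that gene, and 24 keratins were well above background on all 18 arrays. The classes thus ranged from simple keratins, 4 of which were measured on every array, to root sheath keratins, of which Krt73 alone was.

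In 14 of the 39 keratins at least 1 of 12 contrasts was called. In EV organoids base medium raised 8 keratins and lowered 0 relative to ENSW, where 42.2% of all genes were called (23.4% higher and 18.8% lower). The 8 were Krt20, Krt9, Krt12, Krt16, Krt27, Krt35, Krt84 and Krt222, and they came from 5 classes and Krt222. In BRAF organoids base medium raised Krt20 and Krt84 and lowered 0 keratins, beside 1.67% of all genes (1.08% higher and 0.593% lower). In SEL organoids the medium changed 0 of 39 keratins in limma, 0 of them at an unadjusted p under 0.05, beside 0.00467% of all genes. With both media of a culture paired as a random block, the number called was 14 in EV (10 higher and 4 lower), 8 in BRAF (7 higher and 1 lower) and 0 in SEL organoids, beside 58.4%, 19.1% and 0.014% of all genes. The EV count was 4 without EV line 2 in ENSW or line 3 in base medium, and 5 without line 2 in base or line 3 in ENSW. The BRAF count was 0 without any 1 of 5 of the 6 BRAF arrays or of 4 arrays of the other types, and 4 without BRAF line 1 in base medium.

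Between organoid types the calls went both ways. BRAF against EV organoids gave 1 keratin higher and 0 lower in ENSW (6.22% of all genes called, 4.8% higher and 1.41% lower). In base medium BRAF organoids had 3 keratins higher and 3 lower than EV (31.1%, 17.9% and 13.1%). SEL organoids had 3 keratins higher and 1 lower than EV in ENSW (13.8%, 8.7% and 5.15%). In base medium SEL organoids had 2 higher and 6 lower than EV (48.2%, 25% and 23.2%). Against BRAF organoids, SEL organoids had 0 keratins called in ENSW (0.607%), where 16 had an unadjusted p under 0.05. In base medium 1 was higher and 4 were lower (9.77%, 4.63% and 5.14%). With the line number as a block, BRAF against EV organoids gave 2 higher and 0 lower in ENSW and 5 higher and 3 lower in base medium (8.89% and 35% of all genes called). SEL against EV gave 3 higher and 4 lower, and 2 higher and 8 lower (17.3% and 51.3%). SEL against BRAF gave 0 higher and 1 lower, and 1 higher and 11 lower (1.09% and 12.9%). The count for SEL against BRAF in base medium, 5 without the block and 12 with it, was 11 without BRAF line 1 in base medium and 2 without BRAF line 2 in base medium. It was 3 without BRAF line 3 in base medium or without any 1 of the 3 EV arrays in ENSW. The SEL against EV count in ENSW was 8 without SEL line 1 in base medium, and 2 without EV line 1 or SEL line 2 in ENSW.

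**Figure D1:**
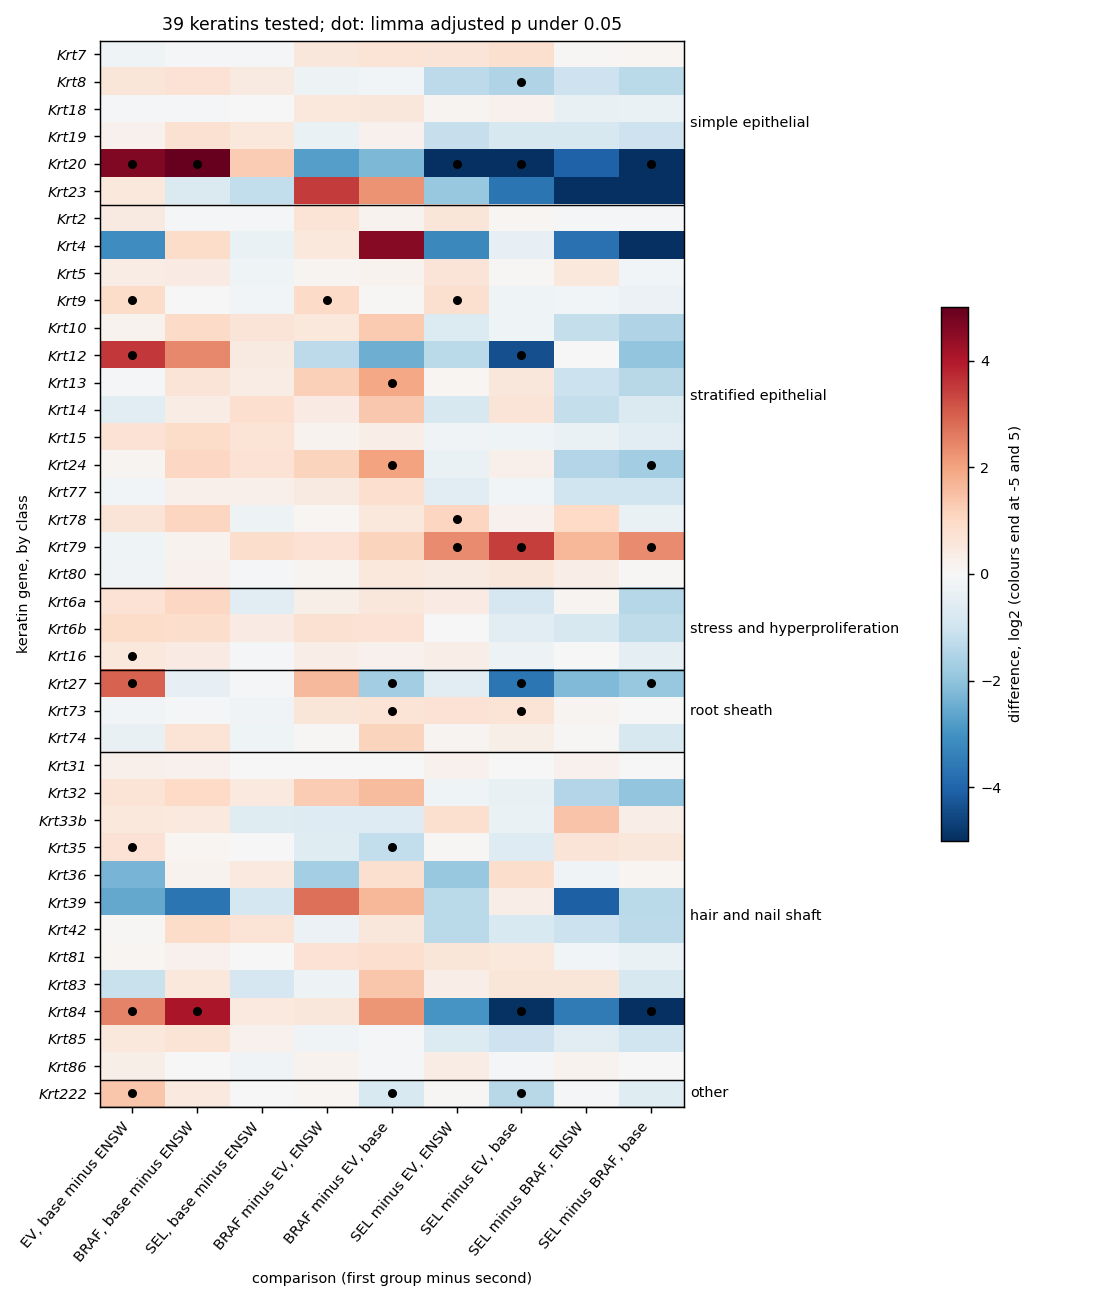
Log2 differences of the 39 tested keratins (rows, by class) in 9 comparisons (columns, first group minus second), with a black dot where limma's adjusted p was under 0.05. Dots are few in each column, 8 at most, and Krt20, Krt27 and Krt84 carry 5, 4 and 4 of them.

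Krt8 and Krt18, the founding pair of simple epithelia, were in the top 2% of probes on all 18 arrays. Krt8 levels in lines 1 to 3 were 8.46, 8.36 and 8.46 in EV organoids in ENSW and 9.08, 9.15 and 8.92 in base medium. BRAF organoids gave 8.43, 8.25 and 7.87 in ENSW and 8.41, 9.43 and 8.83 in base medium. SEL organoids gave 6.22, 7.66 and 7.50 in ENSW and 6.40, 7.89 and 8.38 in base medium. Every SEL array was below every EV array of the same medium, and SEL line 1 was the lowest throughout. Krt8 fell in SEL against EV organoids in base medium (-1.49 ± 0.45, adjusted p = 0.0137). In ENSW that difference was -1.30 ± 0.45 (adjusted p = 0.0694), and against BRAF organoids in base medium it was -1.33 ± 0.45 (adjusted p = 0.0764). With the line as a block these last comparisons were called (adjusted p = 0.0445 and 0.0484), and the former also with the 3 other sets of normalized values (adjusted p = 0.0424 to 0.0487). The called difference was lost without SEL line 1 in base medium (-0.91, adjusted p = 0.0676) and with normexp background correction (adjusted p = 0.0564). The other Krt8 probe gave -1.70 for SEL against EV in base medium.

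No difference was called for Krt18. Its levels ran from 7.01 to 8.62 over the 18 arrays, and the largest of its 9 differences was 0.56 ± 0.34, for BRAF against EV in base medium (adjusted p = 0.226). SEL minus EV was 0.15 ± 0.34 in ENSW and 0.21 ± 0.34 in base medium, beside -1.30 and -1.49 for Krt8. Whether the Krt8 and Krt18 differences differ from each other was not tested.

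Krt7 and Krt19, a type II and a type I keratin of simple and ductal epithelia, were also bright on every array, with levels of 4.66 to 6.94 and 6.55 to 9.31. Krt7 in ENSW was 4.95, 5.81 and 5.53 in EV, 5.84, 6.19 and 5.96 in BRAF and 5.19, 6.47 and 6.53 in SEL organoids. These groups overlapped, and the largest of its 9 differences was 0.80 ± 0.59, for SEL against EV in base medium (adjusted p = 0.284). Without SEL line 1 in base medium it was 1.47 and called (adjusted p = 0.0413). Krt19 in ENSW was 8.10, 8.44 and 8.21 in EV, 8.07, 7.94 and 7.73 in BRAF and 6.55, 7.46 and 7.31 in SEL organoids, so SEL lay below both other types. SEL minus EV was -1.14 ± 0.40 in ENSW (adjusted p = 0.0702) and -0.82 ± 0.40 in base medium (adjusted p = 0.103). With the line as a block both were called (adjusted p = 0.0287 and 0.0461), as was SEL minus BRAF in base medium (-1.05, adjusted p = 0.0483).

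Krt20, the type I keratin of differentiated intestinal cells, ranged from -5.18 to 8.40 over the 18 arrays. EV organoids had 3.93, 1.01 and 4.43 in ENSW and 8.05, 6.81 and 8.40 in base medium. BRAF organoids had 1.46, -0.69 and 0.31 in ENSW and 4.34, 6.50 and 5.69 in base medium. SEL organoids had -5.18, -3.28 and -2.54 in ENSW and -4.91, -2.27 and -0.05 in base medium. All but 1 of the 18 arrays, SEL line 1 in ENSW, were well above background, and the 2 WT arrays were at 3.72 in ENSW and 8.26 in base medium. In each medium every SEL array was below every EV and BRAF array, and all 9 cultures were higher in base medium than in ENSW.

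Krt20 fell in SEL against EV organoids in ENSW (-6.79 ± 1.17, adjusted p = 0.00255) and in base medium (-10.16 ± 1.17, adjusted p = 1.03e-05). It fell in SEL against BRAF organoids in base medium (-7.92 ± 1.17, adjusted p = 0.00114). In ENSW that difference was -4.02 ± 1.17 (adjusted p = 0.184). The rise in base medium over ENSW by culture was 4.12, 5.80 and 3.96 in EV, 2.87, 7.19 and 5.38 in BRAF and 0.26, 1.01 and 2.49 in SEL organoids. The response in SEL minus that in EV was -3.37 ± 1.65 (adjusted p = 0.158), called with the media of a culture paired (adjusted p = 0.0269) and with normexp background correction (adjusted p = 0.0289). BRAF minus EV in base medium was -2.25 ± 1.17 (adjusted p = 0.16, and 0.048 with normexp). The call of the BRAF rise was lost without any 1 of 11 of the 18 arrays (adjusted p up to 0.201, without BRAF line 2 in ENSW). The summed level of 7 surface colonocyte markers on the array, on the linear scale, was 63.2 to 337 in EV and 32.3 to 41.8 in BRAF organoids in ENSW. In base medium it was 1184 to 2184 in EV and 144 to 426 in BRAF organoids. In SEL organoids it was 19.4 to 27.2 over both media. There line 2 went from 23.5 in ENSW to 20.7 in base medium, while its Krt20 rose by 1.01. Most of the sum in SEL organoids came from Car4, with means of 4.41 in ENSW and 4.34 in base medium. Car1, the next brightest there, had means of -1.33 and 0.82, so the sum says little about the other markers. In SEL against EV organoids in base medium 6 of the 7 markers were lower, with 6 of 7 well above background on each SEL array. Car4 was not lower, with means of 4.34 in SEL and 4.29 in EV organoids. Their part in the Krt20 result was not tested.

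Krt23, a type I keratin of simple epithelia, had widely spread levels in SEL organoids. EV organoids had 0.70, -0.16 and 2.32 in ENSW and 1.20, 0.64 and 2.64 in base medium. BRAF organoids had 5.27, 4.02 and 4.02 in ENSW and 3.72, 3.33 and 4.11 in base medium, above every EV array. SEL line 1 had 3.89 and 2.74, SEL line 2 had -5.64 and -6.32, neither well above background, and SEL line 3 had -1.12 and -2.94. No Krt23 difference was called: BRAF minus EV was 3.48 ± 2.11 in ENSW (adjusted p = 0.364), and SEL minus BRAF in base medium was -5.89 ± 2.11 (adjusted p = 0.0948, and 0.0434 with the line as a block). Without both SEL line 1 arrays the latter was -8.35 (adjusted p = 0.0021), and SEL minus EV in base medium was -6.12 (adjusted p = 0.00176).

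**Figure D2:**
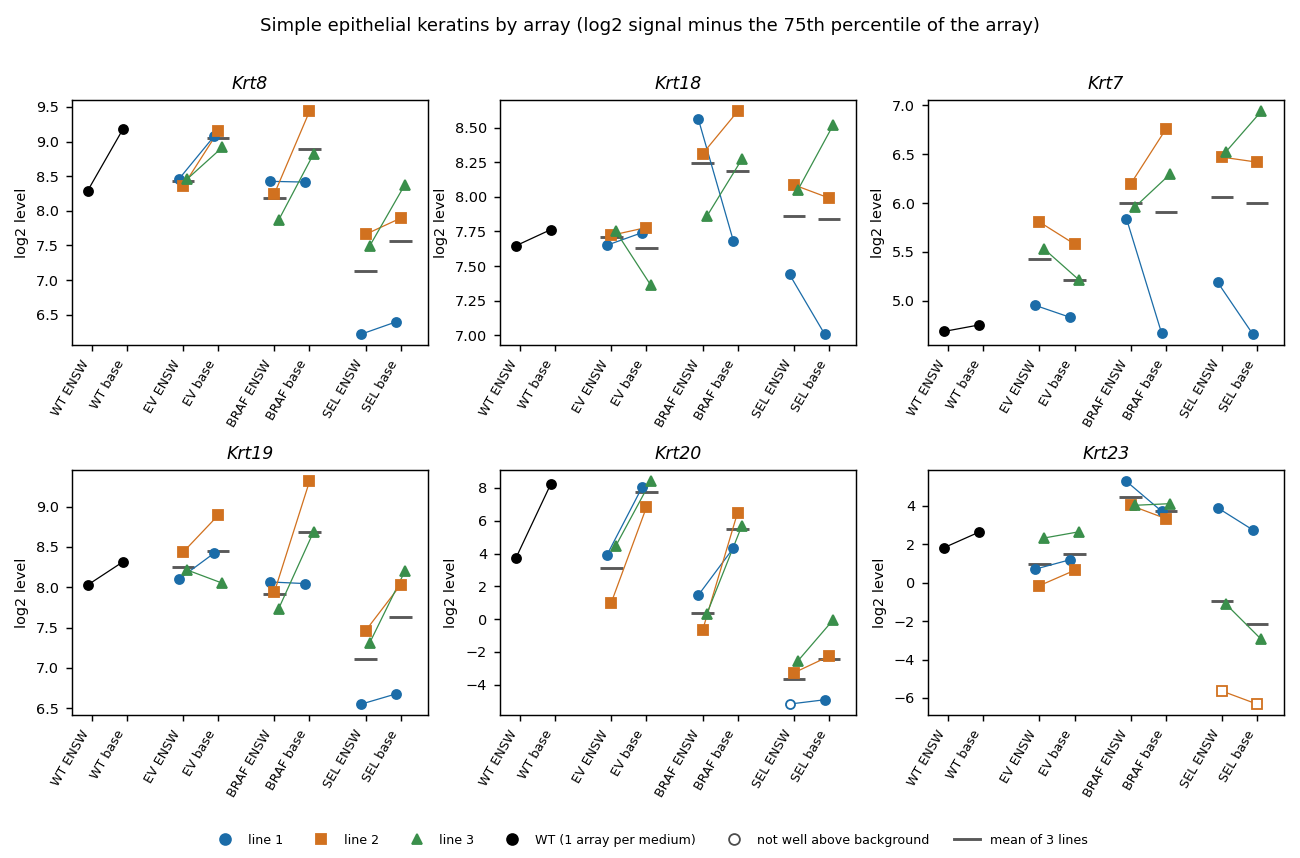
Levels of the 6 simple keratins on each array (vertical axis, log2 signal minus the 75th percentile of the array) for WT, EV, BRAF and SEL organoids in ENSW and base medium; lines join both media of a culture, grey bars are means of 3 lines, and open symbols are not well above background. Krt20 is lowest in SEL organoids, from -5.18 to -0.05, and Krt23 in SEL organoids spreads from -6.32 to 3.89.

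Among stratified keratins Krt79, a type II keratin of skin and of the hair canal and sebaceous duct, was the one that rose in SEL organoids in both media. EV organoids had 0.02, -0.01 and -0.26 in ENSW and -0.37, -0.31 and -0.24 in base medium. BRAF organoids had 0.11, -0.19 and 1.95 in ENSW and 0.56, 0.04 and 1.81 in base medium. SEL organoids had 2.10, 3.03 and 1.74 in ENSW and 1.72, 4.53 and 3.22 in base medium. SEL arrays lay above all EV arrays, whereas BRAF line 3 reached into the SEL range in both media. Krt79 rose in SEL against EV organoids by 3.47 ± 0.67 in base medium (adjusted p = 0.000668) and by 2.37 ± 0.67 in ENSW (adjusted p = 0.0321). Against BRAF organoids in base medium it rose by 2.35 ± 0.67 (adjusted p = 0.0404). That call was lost without any 1 of 8 of the 18 arrays (adjusted p up to 0.162), and the ENSW call without any 1 of 5 arrays (up to 0.115).

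Krt9, known from the thick skin of palms and soles, stayed in a narrow range and between the 44.4 and 52.6 percentiles of all probes on each array. EV organoids had -4.63, -4.39 and -4.47 in ENSW and -3.60, -3.87 and -3.31 in base medium. BRAF organoids had -3.70, -3.42 and -3.53 in ENSW and SEL organoids -3.63, -3.63 and -3.77, all above the EV arrays. In base medium the BRAF and SEL groups overlapped with EV. Krt9 rose with base medium in EV organoids (0.90 ± 0.16, adjusted p = 0.000456) and was higher in ENSW in BRAF (0.95 ± 0.16, adjusted p = 0.0042) and SEL (0.82 ± 0.16, adjusted p = 0.00518) than in EV organoids. Both of these differences lost their call with normexp background correction (0.19, adjusted p = 0.0727, and 0.15, adjusted p = 0.128).

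Krt12, a keratin of the corneal epithelium, was well above background on 6 of the 18 arrays. EV organoids had -4.01, -8.18 and -6.16 in ENSW, with line 1 alone well above background, and -2.49, -4.36 and -0.92 in base medium, where all 3 were. In BRAF organoids only lines 2 and 3 in base medium were well above background (-4.36 and -3.66), and in SEL organoids no array was. Krt12 rose in EV organoids in base medium (3.52 ± 1.02, adjusted p = 0.0126), although the groups overlapped and 1 of 3 ENSW arrays measured it, so the size of the difference rests partly on signals near background. The call was lost without EV line 2 in ENSW (adjusted p = 0.0671) or line 3 in base medium (adjusted p = 0.0735). It was at least 7.13-fold lower in SEL than in EV organoids in base medium (adjusted p = 0.00257), a bound set by the lowest signals well above background on the SEL arrays. The other Krt12 probe was well above background on the 3 EV arrays in base medium alone.

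Krt13 and Krt24, type I keratins of stratified epithelia, were raised in BRAF organoids. Krt13 in base medium was 1.68, 2.29 and 1.38 in EV, 2.55, 4.55 and 4.02 in BRAF and 1.29, 2.73 and 2.98 in SEL organoids. Krt24 in base medium was -2.86, -2.33 and -2.72 in EV, -1.81, 0.27 and -0.37 in BRAF and -3.37, -1.83 and -1.96 in SEL organoids. For both genes every BRAF array lay above every EV array. BRAF minus EV in base medium was 1.92 ± 0.49 for Krt13 (adjusted p = 0.00885) and 2.00 ± 0.49 for Krt24 (adjusted p = 0.00778). Krt24 was lower in SEL than in BRAF organoids (-1.75 ± 0.49, adjusted p = 0.0387), and that call did not hold when any 1 of 8 arrays was left out (adjusted p up to 0.171). With the line as a block Krt13 was called there too (-1.37, adjusted p = 0.0246), and Krt24 was also called in ENSW, at 1.11 for BRAF against EV (adjusted p = 0.0372) and -1.45 for SEL against BRAF (adjusted p = 0.0403).

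Krt78, a type II keratin of stratified epithelia, was dim, with levels of -6.24 to -4.10, and was well above background on 14 of the 18 arrays. In ENSW it was -6.24, -5.53 and -5.49 in EV and -4.43, -4.53 and -5.03 in SEL organoids, which did not overlap (1.09 ± 0.26, adjusted p = 0.0161). The call was lost with the mean of both its probes (0.90, adjusted p = 0.0939), with normexp (0.099, adjusted p = 0.487) and with the authors' values (0.25, adjusted p = 0.119). With both media of a culture paired, Krt78 was also called higher in base medium in EV (0.65, adjusted p = 0.0142) and BRAF organoids (1.08, adjusted p = 0.00433).

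Of the 8 stratified keratins without a call, Krt4 and Krt14 were chosen here after their values were seen, because they differed most between lines. Krt4, the type II partner of Krt13 in the oesophagus, was well above background on all 18 arrays. It was 0.51, 3.84 and 2.57 in EV organoids in ENSW and -3.89, 3.39 and -1.91 in base medium. BRAF organoids had 2.03, 3.76 and 2.72 in ENSW and 3.16, 4.22 and 3.88 in base medium. SEL lines 1 to 3 had 2.46, -4.92 and -0.23 in ENSW and 2.19, -4.96 and -0.89 in base medium, so line 2, the highest of the EV and of the BRAF lines in both media, was the lowest of the SEL lines. BRAF minus EV in base medium was 4.56 ± 2.06 (adjusted p = 0.108), and 6.65 without EV line 2 in base medium (adjusted p = 0.0238). Base minus ENSW in EV organoids was -3.11 ± 2.06 (adjusted p = 0.25, and 0.0409 with both media of a culture paired).

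Krt14, a type I keratin of basal cells of stratified epithelia, was 3.00 and 3.87 in BRAF line 3, in ENSW and base medium. On the other 16 arrays it ran from -2.97 to 0.85. Its partner Krt5 ran from -4.58 to -2.71, with -4.17 and -3.69 in BRAF line 3. The squamous markers Dsg3 and Ivl were well above background on 7 and 2 of the 18 arrays, and Lor and Trp63, the latter a regulator of basal squamous cells, on all 18; their part in these levels was not tested. BRAF minus EV was 0.39 ± 1.65 in ENSW and 1.34 ± 1.65 in base medium for Krt14, with neither called (adjusted p = 0.922 and 0.571).

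The stress keratins Krt6a and Krt6b, type II keratins induced in wounded and hyperproliferative epidermis, peaked in the same culture as Krt14, as was noticed after their values were seen. Krt6a was -3.71 and -1.83 in BRAF line 3 and well above background on 5 of the 18 arrays. Krt6b was -1.70 and -0.06 there, against -4.87 to -2.03 on the other 16 arrays. The probe that stands for Krt6b lists a Krt6a transcript as well, so these 2 genes cannot be told apart by it. The Krt6b levels above are those of this shared probe. Another Krt6b probe, which lists 1 transcript, was well above background on 17 of the 18 arrays and ran from -5.25 to -3.10. Neither gene was called. Krt16, a type I stress keratin, rose slightly with base medium in EV organoids (0.51 ± 0.18, adjusted p = 0.0336), from -0.63, -0.81 and -0.63 to -0.31, -0.20 and -0.03. That call was lost without any 1 of 5 of the 18 arrays (adjusted p up to 0.121).

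**Figure D3:**
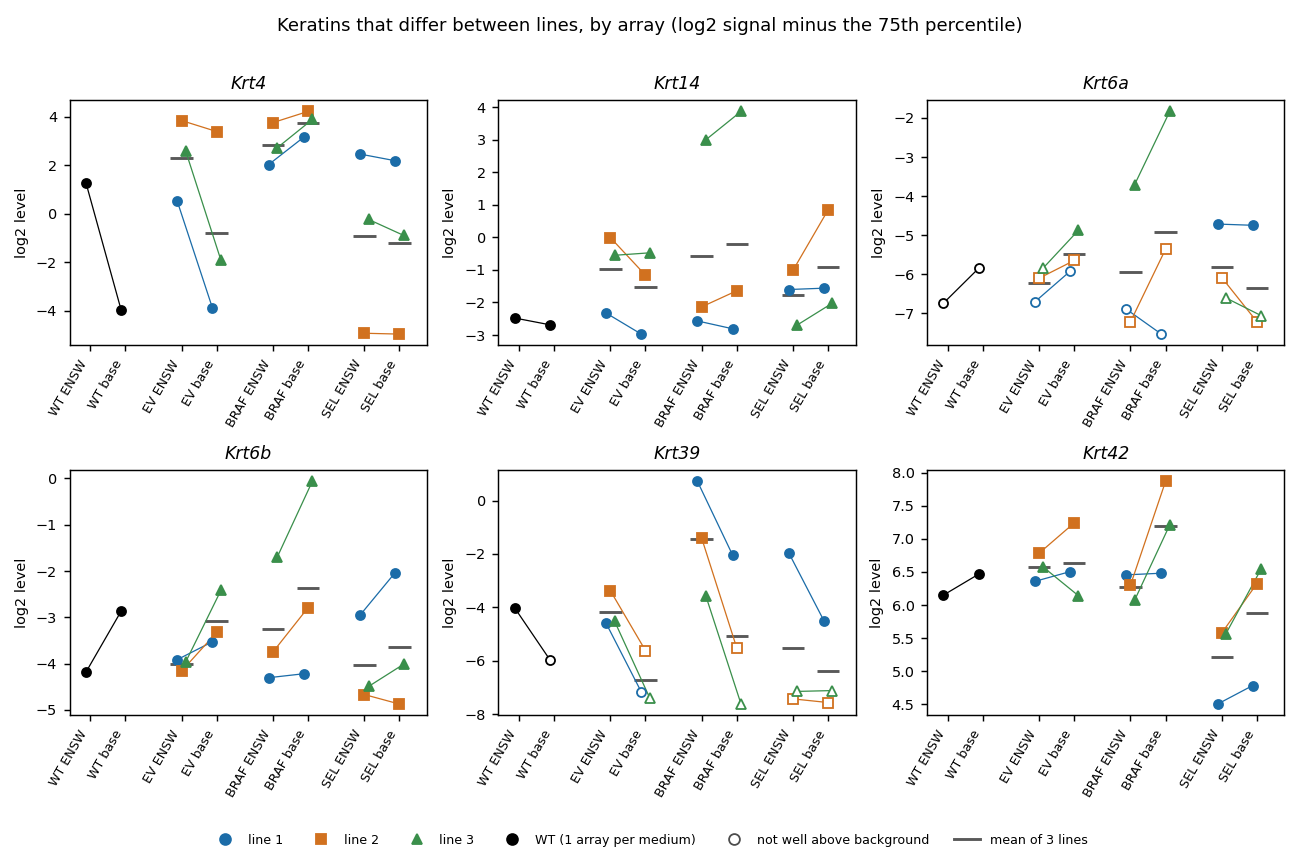
Levels of 6 keratins with no call, on each array (vertical axis, log2 signal minus the 75th percentile of the array), for WT, EV, BRAF and SEL organoids in ENSW and base medium; colours mark lines, grey bars are means of 3 lines, and open symbols are not well above background. Krt14, Krt6a and Krt6b are highest in BRAF line 3, at 3.87, -1.83 and -0.06 in base medium, and Krt4 in SEL organoids spreads from -4.96 to 2.46.

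Among root sheath keratins Krt27, a type I keratin of the inner root sheath, responded to the medium differently in EV organoids and in the other types. EV organoids had -4.20, -5.42 and -6.22 in ENSW and -1.89, -2.81 and -2.25 in base medium. BRAF organoids had -3.96, -2.81 and -4.19 in ENSW and -4.57, -3.60 and -3.97 in base medium. SEL organoids had -6.10, -5.48 and -5.95 in ENSW and -6.70, -5.60 and -5.48 in base medium, and no SEL array was well above background. Krt27 rose by 2.96 ± 0.51 in EV organoids (adjusted p = 0.000363), and differed by -0.39 ± 0.51 in BRAF organoids (adjusted p = 0.733).

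The response of Krt27 to the medium differed from that of EV organoids by -3.36 ± 0.72 in BRAF (adjusted p = 0.03) and by -3.05 ± 0.72 in SEL organoids (adjusted p = 0.00703). As no SEL array was well above background in either medium, the SEL value sets the EV rise against a response that could not be measured. In these contrasts of responses Krt9 was called as well (-0.89 ± 0.22, adjusted p = 0.0456, and -1.05 ± 0.22, adjusted p = 0.00408). With Krt222 in the latter, the counts were 2 and 3 keratins, all lower, beside 3.53% of all genes (0.551% lower) and 24.2% (10.4% lower). Between SEL and BRAF responses 0 keratins and 0 genes were called, with 3 keratins at an unadjusted p under 0.05. With both media of a culture paired, 1 higher and 3 lower, 1 higher and 8 lower, and 0 higher and 1 lower were called in these contrasts, beside 19.8%, 43.2% and 1.65% of all genes. In base medium Krt27 was lower in BRAF than in EV organoids (-1.73 ± 0.51, adjusted p = 0.0192), a call lost without line 1 of either type or EV line 3 in base medium (adjusted p = 0.058 to 0.0787). It was at least 8.62-fold lower in SEL than in EV (adjusted p = 4.89e-05) and at least 2.60-fold lower than in BRAF organoids (adjusted p = 0.0317). The call against BRAF was lost with normexp background correction (adjusted p = 0.269), and that of the BRAF response without any 1 of 7 of the 18 arrays (adjusted p up to 0.0888).

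Krt73, a type II inner root sheath keratin, was slightly higher in base medium in BRAF (0.66 ± 0.23, adjusted p = 0.0413) and SEL (0.68 ± 0.23, adjusted p = 0.0257) than in EV organoids. Its levels there were -0.36, -0.34 and -0.53 in EV, 0.25, 0.36 and 0.14 in BRAF and 0.79, 0.12 and -0.12 in SEL organoids. BRAF and SEL arrays all lay above the EV arrays and overlapped each other, and the calls were lost without any 1 of 10 and of 2 of the 18 arrays (adjusted p up to 0.125 and 0.134). Krt74, the other root sheath keratin tested, was well above background on 4 of the 18 arrays and not called.

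Among hair and nail keratins Krt84, a type II hair keratin also found in the tongue, was well above background on no SEL array. EV organoids had -2.25, -6.81 and -3.64 in ENSW, with line 2 not well above background, and -0.92, -2.11 and -2.21 in base medium. BRAF organoids had -2.62, -5.15 and -3.20 in ENSW and -0.98, 1.05 and 1.26 in base medium. SEL organoids had -7.34, -6.78 and -7.43 in ENSW and -6.90, -6.42 and -6.76 in base medium. Every SEL array was below every BRAF array and every EV array but line 2 in ENSW. The 2 WT arrays were at -4.29 in ENSW and -1.77 in base medium. As for Krt20, all EV and BRAF cultures were higher in base medium, by 1.33, 4.70 and 1.43 in EV and by 1.64, 6.19 and 4.46 in BRAF organoids.

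In base medium Krt84 was at least 12.8-fold lower in SEL than in EV organoids (adjusted p = 0.000646) and at least 58.5-fold lower than in BRAF organoids (adjusted p = 0.000574). The rise with base medium was called in EV (2.49 ± 0.95, adjusted p = 0.0485) and BRAF organoids (4.10 ± 0.95, adjusted p = 0.0469). Each of these calls was lost without any 1 of 14 of the 18 arrays, with adjusted p up to 0.246 and 0.22 (each without line 2 in ENSW). Each was also lost with quantile normalization (0.0566 and 0.0505) and without a filter on dim probes (0.064 and 0.0669). The EV call was lost as well with normexp (0.89, adjusted p = 0.107) and with the authors' values (1.24, adjusted p = 0.0764).

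**Figure D4:**
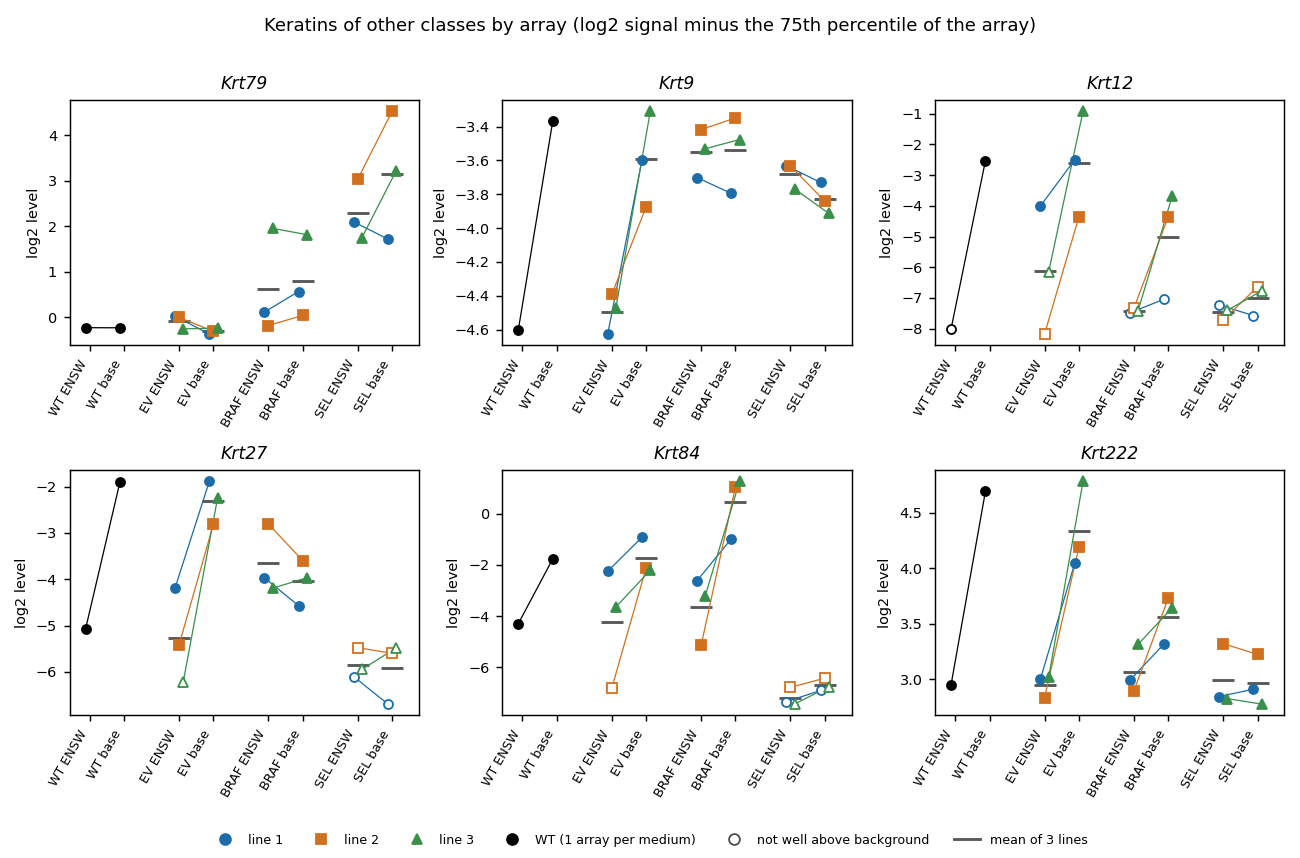
Levels of 6 called keratins of other classes on each array (vertical axis, log2 signal minus the 75th percentile of the array) for WT, EV, BRAF and SEL organoids in ENSW and base medium; lines join both media of a culture, grey bars are means of 3 lines, and open symbols are not well above background. Krt84 and Krt27 are open on all 6 SEL arrays, and Krt79 lies between 1.72 and 4.53 in SEL against -0.37 to 0.02 in EV organoids.

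Because Krt20 and Krt84 lie on different chromosomes and were both called in 4 of the 9 comparisons, the bases just before their start sites are shown. They are 150 bases long, from RefSeq on GRCm38.p6, written 5′ to 3′ on the gene's strand (minus for both), at chr11:99438154-99438303 for Krt20 and chr15:101532821-101532970 for Krt84. Capitals mark matches to 3 motifs searched on both strands: the TATA box (TATAAA), a motif bound by KLF factors (CACCC) and a motif bound by AP-1 (TGANTCA).

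Krt20: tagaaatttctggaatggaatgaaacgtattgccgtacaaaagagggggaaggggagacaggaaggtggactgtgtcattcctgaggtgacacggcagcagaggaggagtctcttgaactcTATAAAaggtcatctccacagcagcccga
Krt84: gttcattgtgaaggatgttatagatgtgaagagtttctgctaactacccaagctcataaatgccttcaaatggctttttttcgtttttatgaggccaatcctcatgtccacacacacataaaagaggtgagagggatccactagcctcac

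Krt20 has TATAAA at position -29 from its start, and the 150 bases of Krt84 match none of these motifs, while the 300-base window of Krt84 described next holds TATAAA and CACCC outside them. RefSeq promoters, from 250 bases before to 50 after a start, were held for 34 keratin genes, 25 of them tested. Among the 26 windows of tested keratins 11 held TATAAA, 22 CACCC and 2 TGANTCA, against 13.6%, 57.5% and 7.81% of all 32851 promoters. A match describes letters and no site.

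Of the other 11 hair and nail keratins tested, 1 was called. Krt35, a type I hair matrix and cortex keratin, was well above background on 15 of the 18 arrays. In base medium it was -4.41, -4.11 and -3.79 in EV and -5.23, -5.31 and -5.42 in BRAF organoids, with no overlap (-1.22 ± 0.26, adjusted p = 0.00321). That call was lost with normexp background correction (-0.16, adjusted p = 0.0534). Krt35 rose with base medium in EV organoids (0.71 ± 0.26, adjusted p = 0.039). This second call was lost under all 3 other sets of normalized values (adjusted p = 0.131 to 0.235). Krt39, chosen after its values were seen, was 0.72, -1.41 and -3.58 in BRAF organoids in ENSW and -2.04, -5.53 and -7.62 in base medium, and it was lower in base medium in every EV and BRAF culture. Base minus ENSW was -3.64 in BRAF and -2.56 in EV organoids. Neither was called in the fit without a block, and both were with both media of a culture paired (adjusted p = 0.017 and 0.0279). In SEL lines 1 to 3 it was -2.54, -0.14 and 0.03. Krt39 was well above background on 9 of the 18 arrays, so the size of these differences rests partly on signals near background.

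The other 9 tested keratins without a call are given by their range. Of the stratified keratins, Krt15 ran from -5.28 to -3.06 (median -4.16), Krt2 from -3.45 to -2.21 (median -2.69), Krt77 from -6.92 to -4.45 (median -5.57) and Krt80 from -0.26 to 0.89 (median 0.43), well above background on 16, 18, 6 and 18 of 18 arrays. Of the hair and nail keratins, Krt31 ran from -2.64 to -2.04 (median -2.36), Krt32 from -4.26 to 0.10 (median -2.44) and Krt33b from -7.31 to -3.98 (median -5.95), well above background on 18, 18 and 3 arrays. Krt36 ran from -7.08 to -2.45 (median -5.09) and Krt86 from -2.91 to -2.09 (median -2.43), on 8 and 18 arrays. The lowest adjusted p among these 9 genes over the 9 comparisons was 0.0731, for Krt2 in BRAF against EV organoids in ENSW (0.67 ± 0.21).

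Krt42, Krt81 and Krt85, keratins known from hair and nail, were chosen after their values were seen because their probes were bright. The brightest Krt85 probe was at least at the 94.2 percentile of all probes on each of the 18 arrays. The other probes named Krt85 lay lower, between the 69.3 and 78.9 and between the 37.9 and 58.8 percentiles. Krt42 was at least at 96.3 and Krt81 at least at 85.4. None was called in the fit without a block. Krt42 differed by -1.35 ± 0.46 between SEL and EV organoids in ENSW (adjusted p = 0.0668, and 0.0253 with the line as a block), with -0.74 ± 0.46 in base medium, which the 3 other sets of normalized values put at -1.23 to -1.18 and called (adjusted p = 0.0346 to 0.0392). SEL minus BRAF in base medium was called with the line as a block (-1.30, adjusted p = 0.0357). The Krt85 probe differed by -1.04 ± 0.50 between SEL and EV in base medium (adjusted p = 0.0992). That was called with the block (adjusted p = 0.0473) and with the 3 other sets of values (adjusted p = 0.0196 to 0.0241). The mean of the probes named Krt85 gave -0.70 (adjusted p = 0.0129), but it pools probes that took opposite signs in another comparison. The Krt19 differences were -1.14 and -0.82. In the same comparisons Krt81 differed by 0.62 and 0.53 (the latter 1.20, adjusted p = 0.0452, without both SEL line 1 arrays), and Krt7 by 0.63 and 0.80. Whether these probes also bind other keratins was not tested.

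The probes of Krt81 and Krt83 are shown because they are nearly the same sequence and stand for different genes. Capitals in the Krt81 probe mark bases identical to the Krt83 probe, and in the Krt83 probe bases identical to the Krt81 probe, in the best ungapped alignment, written 5′ to 3′ as in the deposited files.

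Krt81: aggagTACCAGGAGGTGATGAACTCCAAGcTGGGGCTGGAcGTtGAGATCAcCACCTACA
Krt83: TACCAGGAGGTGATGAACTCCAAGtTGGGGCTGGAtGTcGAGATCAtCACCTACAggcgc

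The Krt81 and Krt83 probes share 51 of 55 aligned bases. The probe named Krt83 in the files carries an accession that RefSeq now assigns to Krt87, and it lists several transcripts, as does the Krt81 probe. Krt83 ranged from -6.15 to -2.74 over the 18 arrays and was not called. Levels of different probes are not compared here.

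Probes named for 1 gene could differ. Krt85 has 3 probes: the brightest (A_55_P1999364) differed by -0.18 between BRAF and EV organoids in ENSW (adjusted p = 0.880 in a limma fit of all probes). The other probes differed by 0.52 (A_55_P2086329) and by -1.55 (A_55_P2086334), the last called (adjusted p = 0.00246). By annotated position A_55_P2086334 lies closer to the Krt83 probe than to A_55_P2086329, and A_55_P1999364 has no position. Which gene A_55_P2086334 measures was not tested. In EV organoids base medium raised A_55_P2086329 by 1.02 and changed A_55_P2086334 by -0.97, so no direction is given for Krt85. Krt10, a keratin of suprabasal epidermis, was also chosen after its values were seen, and BRAF minus EV in base medium was 1.30 with 1 probe (adjusted p = 0.0737, and 0.0122 with the line as a block) and -0.23 with the other. For Krt13, whose call is given above, the second probe was near background and differed by 1.56 in that comparison, not called. Krt8 was measured alike by both of its probes.

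**Figure D5:**
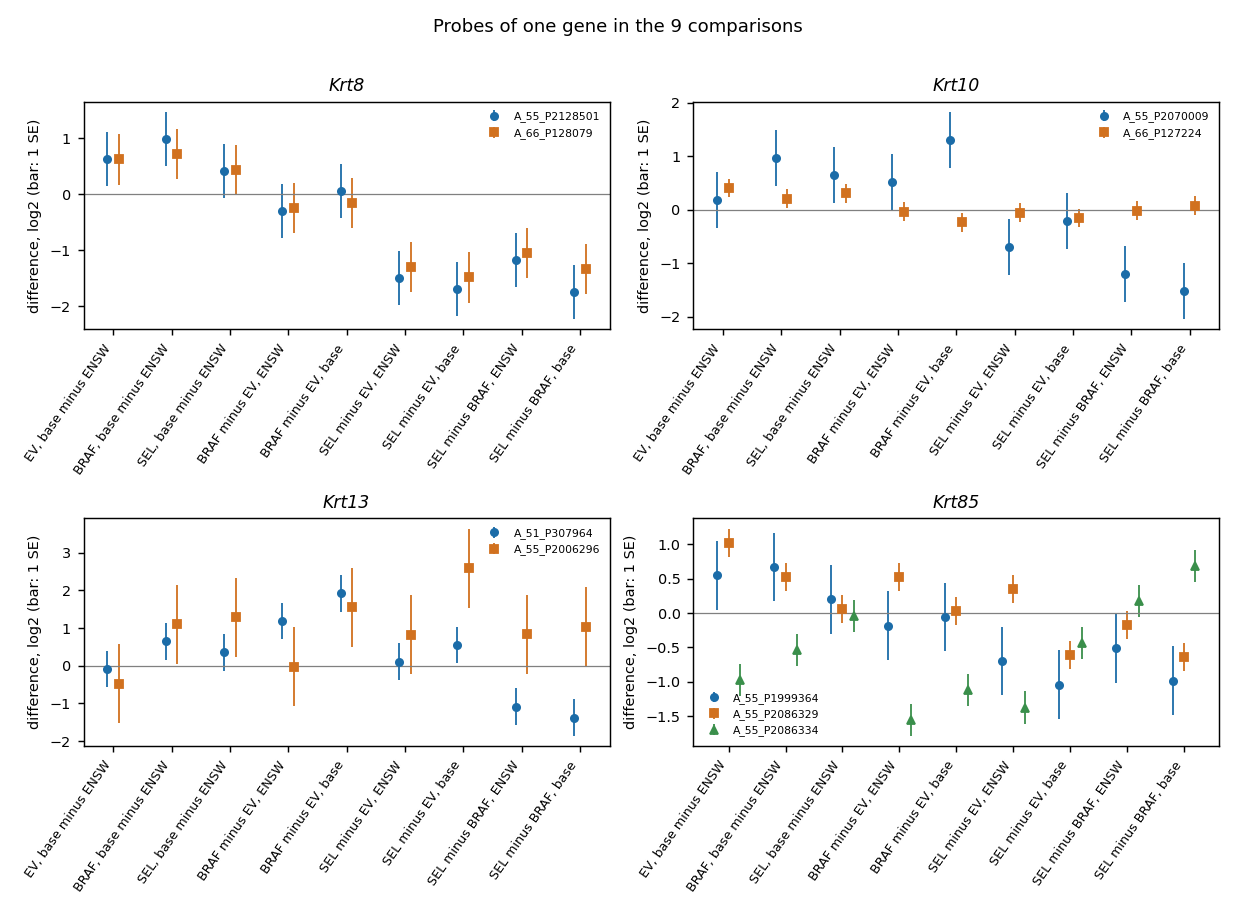
Log2 differences (vertical axis, bars 1 SE) in 9 comparisons (horizontal axis, first group minus second) for each kept probe of Krt8, Krt10, Krt13 and Krt85. The 2 Krt8 probes run together, at -1.49 and -1.70 for SEL minus EV in base medium. Probes named Krt85 take opposite signs, at 1.02 and -0.97 for base minus ENSW in EV organoids.

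Krt222, a small keratin-like gene outside the 5 classes, was well above background on every array with the probe that stands for it. Another Krt222 probe was well above background on 1 of the 18 arrays, with levels of -8.00 to -4.83, and was not tested. The values below are those of the brighter probe. EV organoids had 3.00, 2.83 and 3.02 in ENSW and 4.05, 4.19 and 4.78 in base medium. In base medium BRAF organoids had 3.32, 3.73 and 3.65 and SEL organoids 2.91, 3.23 and 2.78, below all EV arrays. Krt222 rose by 1.39 ± 0.21 with base medium in EV organoids (adjusted p = 0.000157). In base medium it was lower in BRAF (-0.78 ± 0.21, adjusted p = 0.0136) and in SEL (-1.37 ± 0.21, adjusted p = 0.000111) than in EV organoids. The BRAF call was lost without EV line 3 (-0.55, adjusted p = 0.0695) or BRAF line 1 in base medium (-0.65, adjusted p = 0.0596). The response to the medium was smaller in SEL than in EV organoids (-1.42 ± 0.30, adjusted p = 0.00391). In BRAF organoids the response differed from EV by -0.89 ± 0.30 (adjusted p = 0.106, and 0.0104 with both media of a culture paired).

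Keratin filaments are anchored at desmosomes and hemidesmosomes, and lists of genes for these and other partners were counted. In EV organoids base medium raised 5 and lowered 1 of 11 desmosome genes, raised 3 of 6 hemidesmosome genes and raised 4 and lowered 1 of 8 genes for plakins and keratin linkers, beside 42.2% of all genes called (23.4% higher and 18.8% lower). The desmosome genes had a median difference of 0.49 against 0.19 for all genes. Desmoplakin (Dsp) rose by 1.71 ± 0.25 (adjusted p = 0.00013), the desmosomal cadherin Dsg2 by 1.27 ± 0.18 (adjusted p = 8.7e-05), the laminin chain Lamb3 by 1.91 ± 0.43 (adjusted p = 0.0027) and the linker plectin (Plec) by 1.72 ± 0.41 (adjusted p = 0.0042).

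In SEL against EV organoids in base medium 4 desmosome genes were lower and 1 higher, 4 of 6 hemidesmosome genes were lower, and 4 of 8 plakin and linker genes were lower and 1 higher. Of all genes 48.2% were called there (25% higher and 23.2% lower). Dsp differed by -2.14 ± 0.25 (adjusted p = 1.3e-05) and Dsg2 by -2.05 ± 0.18 (adjusted p = 1.6e-06), while Lamb3 differed by -2.71 ± 0.43 (adjusted p = 0.000134) and Plec by -2.47 ± 0.41 (adjusted p = 0.00021). This comparison shares the EV base arrays with the previous one. Of 11 other intermediate filament genes 4 were higher and 2 lower, with the nuclear lamin Lmnb1 up by 2.23 ± 0.28 (adjusted p = 2.3e-05) and synemin (Synm) at -2.29 ± 0.55 (adjusted p = 0.0034).

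Cornified envelope genes, which build the dead outer layer of skin, were called in 4 of 8 tested (4 higher) for base medium in EV organoids, where 23.4% of all genes were higher, with Sprr1a up by 2.52 ± 0.71 (adjusted p = 0.011). In SEL against EV organoids in base medium 2 of 8 were lower, beside 23.2% of all genes. Of 12 regulators of squamous and hair fates 4 rose with base medium in EV organoids, including Klf4 (2.99 ± 0.71, adjusted p = 0.0039). In SEL against EV organoids in base medium 3 were higher, among them Grhl1 (1.89 ± 0.36, adjusted p = 0.00061), beside 25% of all genes, and 4 were lower, among them Klf4 (-4.42 ± 0.71, adjusted p = 0.00015).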

How the data were processed

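The 20 arrays are one-colour scans, and per the file headers their spot intensities were extracted and background-subtracted with Feature Extraction 10.7.3.1. The authors' deposited table holds log2 values on a common distribution; limma is named for it in the submitters' processing notes, and its steps are not given in the sources used here. Here log2 processed intensity minus each array's 75th percentile was fitted with limma 3.58.1 (R 4.3.3) over 18 arrays in 6 groups (12 residual degrees of freedom), and p-values were adjusted by Benjamini-Hochberg. The fit held neither control spots nor the 48 spots that had been marked as outliers, 0 spots were saturated, and 24 of the 26826 probes kept lacked a value on some array. A probe was kept if well above background on at least 3 arrays, and the kept probe with the highest mean stood for its gene. The fit was also run on simulated data with independent arrays. That run held no correlation between the media of a culture and no slide effect, so it does not cover them.

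Bounds ("at least") set the bright group's mean against, per array of the dim group, the higher of the probe's own signal and the lowest signal well above background. Alternatives were quantile normalization, normexp (offset 50) with quantile normalization, the authors' values, no filter or at least 9 arrays, the mean of kept probes, line, culture or slide as a block, and each array left out; leaving out both arrays of a culture was added after seeing the data. The 6 simple keratins and every called keratin were named with values, other tested keratins by range, and up to 3 called genes for each partner list; further genes are marked in the text as chosen later. Some items that this rule would name are not reported here. The members and lists were chosen with earlier results of these data known.

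Line numbers are those of the labels, which number EV, BRAF and SEL lines alike. The fit took them as pairing only where the line or the culture is named as a block. Without a block it treated both media of a culture as independent arrays. Deviations from group means correlated at 0.42 to 0.87 between the media of a culture. Between arrays of 1 number they correlated at 0.10 to 0.37 for BRAF and SEL, -0.03 to 0.21 for BRAF and EV and -0.08 to 0.09 for EV and SEL. Arrays of different numbers gave -0.26 to 0.10, -0.23 to 0.17 and -0.12 to 0.11. These values thus show no pairing by number between EV and SEL arrays, which limits calls made there with the line as a block.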

Additional observations from a re-analysis of the deposited data

Results flagged for a closer look

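In 3 keratins the response to base medium differed between organoid types by limma's test of the difference itself. For Krt27 the response was lower than in EV organoids by a log2 difference of -3.36 in BRAF and -3.05 in SEL organoids, whose 3 arrays in either medium were not well above background, so that no SEL response could be measured. For Krt9 it was -0.89 in BRAF and -1.05 in SEL organoids, and for Krt222 it was -1.42 in SEL organoids. The Krt9 difference in BRAF organoids lost its call when any 1 of 16 of the 18 arrays was left out (adjusted p up to 0.122).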

How the results depend on the processing

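Over all alternatives, for the keratins named with values, 0 differences reversed a call's direction. Counted per gene, contrast and setting, 234 calls were lost and 127 were gained, while 11441 values kept their side of the threshold. Most of these 11441 were not called in the fit without a block either. Of the keratin counts per contrast and setting, 98 moved by over 1.5 times or between 0 and another count, and 340 did not. The line number as a replicate block gave 2 keratins called for BRAF against EV in ENSW, 7 for SEL against EV in ENSW, and 1 and 12 for SEL against BRAF in ENSW and base medium; it moved no other count by over 1.5 times. Pairing the media of a culture gave 14 for base medium in EV and 8 in BRAF organoids, and 4, 9 and 1 for the differences in response of BRAF from EV, SEL from EV and SEL from BRAF. Without a filter on dim probes the counts were 0 for base medium in BRAF organoids, 3 for SEL against BRAF in base medium and 1 for the BRAF response against EV. That last count was also 1 with quantile normalization, normexp, the authors' values and slide as a fixed block. Quantile normalization gave 1 for base medium in BRAF organoids and 7 for SEL against EV in ENSW, and normexp gave 0 for BRAF against EV in ENSW, where the main count was 1. The cause of these changes was not tested.

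With arrays or cultures left out, the counts ran from 4 to 9 for base medium in EV, 0 to 4 in BRAF and 0 to 0 in SEL organoids. They ran from 1 to 2 and 3 to 9 for BRAF against EV in ENSW and base medium (3 without both arrays of EV line 3), and from 2 to 8 and 7 to 10 for SEL against EV. For SEL against BRAF they ran from 0 to 1 and 2 to 11, and for the responses of BRAF from EV 0 to 2, SEL from EV 3 to 4 and SEL from BRAF 0 to 0. The BRAF against EV count in ENSW was 2 without EV line 1 in ENSW or EV line 3 in base medium. The median difference of all genes for base medium in EV organoids was 0.19, against 0.09 with quantile normalization and 0.03 with normexp. Keratins near background, such as Krt12, Krt27, Krt39, Krt84 and Krt78, are limited by the signal over background.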
